A study of Homo sapiens with 4 samples.

Results

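The aminoacyl-tRNA synthetases are the enzymes that attach each amino acid to its transfer RNA. They were read here by gene symbol in U937 cells, an established human lymphoma line of monocytic character, after shikonin, a naphthoquinone from gromwell root. A list of 35 synthetase genes was searched among probe sets with a single gene symbol, and 32 genes had at least 1 such probe set, 67 probe sets in all, out of 19775 genes and 54675 probe sets on the array. MARS1, QARS1 and TARS2 appeared only on probe sets that carry a second symbol and were not analysed here. All 32 genes passed the filter on dim probe sets, through 61 probe sets: 17 encode cytosolic enzymes and 15 mitochondrial ones, by the rule that mitochondrial symbols end in 2. GARS1 and KARS1, counted as cytosolic, also encode the mitochondrial glycyl and lysyl enzymes.

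The study compared 2 arrays of cells given 100 nM shikonin for 3 h with 2 arrays of cells given the solvent dimethyl sulfoxide (DMSO), and a time was stated for shikonin only. All samples were the same line with no named genetic change, so the data describe a single cell line. Nothing in the labels says whether samples of a group came from separate cultures, so each p-value reflects array-to-array spread that may be technical. The comparison asks how shikonin altered transcript levels relative to solvent. The arrays had median signals between 60.5 and 63.7 and correlated at 0.980 within groups and 0.972 to 0.974 between them. Of 12 markers of a monocytic line, 9 were tested and 0 were called, with summed signals of 69728 to 74199 in DMSO and 70237 to 75577 after shikonin, although MPO (40.8 to 99.8) and CSF1R (110 to 153) were weak. Markers of other cell types summed to 2792 to 2838 and 2755 to 2819, over 12 of 14 listed genes with a probe set, and 0 of the 5 tested were called. In that sum PECAM1 alone read 1994 to 2122. CTSG (25366 to 28279) and ELANE (19369 to 21275) were the largest terms of the monocytic sum.

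Cells keep largely separate sets of synthetases for the cytosol and for mitochondria, both encoded in the nucleus. Several cytosolic enzymes sit together in a multi-synthetase complex, and others work free of it. When amino acids run short, uncharged tRNA activates the kinase GCN2, which phosphorylates the initiation factor eIF2, and translation of the transcription factor ATF4 rises. ATF4 then induces genes of amino acid synthesis and uptake, and many cytosolic synthetases are listed among its targets.

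ATF4 acts with C/EBP factors at a composite element whose core reads TGATGNAA. This core was searched, on both strands, in RefSeq promoter windows of GRCh38.p14 that run from 250 bases before to 50 bases after each transcription start. Windows existed for 30 of the 35 genes; AARS2, LARS1, VARS1, VARS2 and YARS1 had none. A match was found for 8 genes (26.7%), against 4.46% of all 27305 genes with a window. By compartment, 7 of 16 cytosolic genes (43.8%) and 1 of 14 mitochondrial ones (7.14%) had a match. In 6 of the cytosolic genes the match was TTGCATCA or its reverse complement, a form present in 1.08% of all genes with a window. This form was picked as the commonest among the members' own matches, so its comparison with all genes is not independent. The matched stretches are shown because their genes return in the results; each is 30 bases, read 5′ to 3′ on the gene's own strand, with the match in capitals.
AARS1: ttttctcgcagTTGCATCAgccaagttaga
CARS1: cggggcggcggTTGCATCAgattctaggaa
GARS1: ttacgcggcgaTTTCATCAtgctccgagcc
IARS1: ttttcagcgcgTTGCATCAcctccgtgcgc
MARS1: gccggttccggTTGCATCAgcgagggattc
NARS1: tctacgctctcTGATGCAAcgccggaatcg
TARS1: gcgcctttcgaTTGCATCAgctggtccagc
YARS2: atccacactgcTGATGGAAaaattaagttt

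The stretches of AARS1 (chr16:70289675-70289704), CARS1 (chr11:3057407-3057436), IARS1 (chr9:92293692-92293721), NARS1 (chr18:57621804-57621833) and YARS2 (chr12:32756076-32756105) lie on the minus strand. Those of GARS1 (chr7:30594834-30594863), MARS1 (chr12:57488053-57488082) and TARS1 (chr5:33440956-33440985) lie on the plus strand. The match began 187 bases before the start in AARS1, 33 before in GARS1, 13 before in IARS1, 4 before in MARS1 and 2 before in CARS1. In TARS1 and NARS1 it began 2 and 14 bases after the start, and in YARS2 197 bases before. A match describes these letters and is not evidence of binding.

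Shikonin left most synthetase transcripts close to their DMSO level. Of the 32 genes, 3 fell and 0 rose: the mitochondrial methionyl enzyme MARS2, the mitochondrial phenylalanyl enzyme FARS2 and the cytosolic cysteinyl enzyme CARS1. Changes were tested with limma on log2(signal + pseudocount) over all 32768 probe sets kept, and a gene is said to have risen or fallen where its brightest probe set had a Benjamini-Hochberg adjusted p under 0.05. The 3 genes that fell are 9.38% of those tested. Over all 13554 genes tested, 6.65% were called lower and 5.05% higher, so the share that fell was near the background. At an unadjusted limma p under 0.05 the 95% interval leaves out 0. By that measure 3 members lay above 0 and 6 below, together 28.1% against 28% of all genes tested. They made up 7 of 17 cytosolic genes (41.2%, 3 above and 4 below) and 2 of 15 mitochondrial genes (13.3%, 0 above and 2 below). The difference between the compartments was not tested. In bulk RNA, fewer expressing cells and less RNA per cell cannot be told apart.

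MARS2 charges the tRNA that reads methionine codons in mitochondria. Its signals were 2851 and 2956 in DMSO and 2046 and 2070 after shikonin, so the groups lay apart with little spread within either. It was 1.41-fold lower (log2 change -0.49, SE 0.066, 95% interval -0.64 to -0.35, limma adjusted p = 0.00237). The call held without any 1 of the 4 arrays, with limma adjusted p of 0.00672 and 0.0111 without DMSO 1 and DMSO 2, and of 0.00966 and 0.00758 without shikonin 1 and shikonin 2. MARS2 had a single probe set, so no second reading of the transcript was at hand.

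CARS1 attaches cysteine in the cytosol, and it was the member with the most probe sets called. On its brightest probe set the signals were 7433 and 7865 in DMSO and 6194 and 6210 after shikonin. Both shikonin values lay below both DMSO values, a 1.23-fold difference (log2 change -0.30, SE 0.056, limma adjusted p = 0.0116). A dimmer probe set read 1581 and 1462 against 1057 and 1150 (log2 change -0.46, limma adjusted p = 0.0123). Another read 1454 and 1611 against 1064 and 1073 (log2 change -0.51, limma adjusted p = 0.0067). These 3 probe sets fell, while the fourth, with signals of only 64.0 to 87.8, changed by 0.17 with overlapping groups and a 95% interval of -0.53 to 0.88. For the brightest probe set the call was lost without DMSO 2 (limma adjusted p = 0.0539) or shikonin 1 (limma adjusted p = 0.0522), at log2 changes of -0.26 and -0.30. With the mean of all 4 probe sets it was lost too (limma adjusted p = 0.0667).

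FARS2, a mitochondrial enzyme that works as a single chain, read 1462 and 1528 in DMSO and 1192 and 1201 after shikonin. The groups were apart, and the gene was 1.25-fold lower (log2 change -0.32, SE 0.078, limma adjusted p = 0.0356). Its second probe set read 447 and 432 against 422 and 358 and did not pass (log2 change -0.17). The FARS2 call did not survive the loss of any array: the limma adjusted p became 0.0756 or 0.142 when DMSO 1 or DMSO 2 was left out, and 0.114 or 0.102 for shikonin 1 or shikonin 2. The change itself stayed between -0.35 and -0.29. All 3 calls depend on letting the limma prior variance change with brightness. With 1 prior for all probe sets, limma called 0 of all genes, and the adjusted p was 0.166 for MARS2, 0.246 for CARS1 and 0.23 for FARS2.

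**Figure D1:**
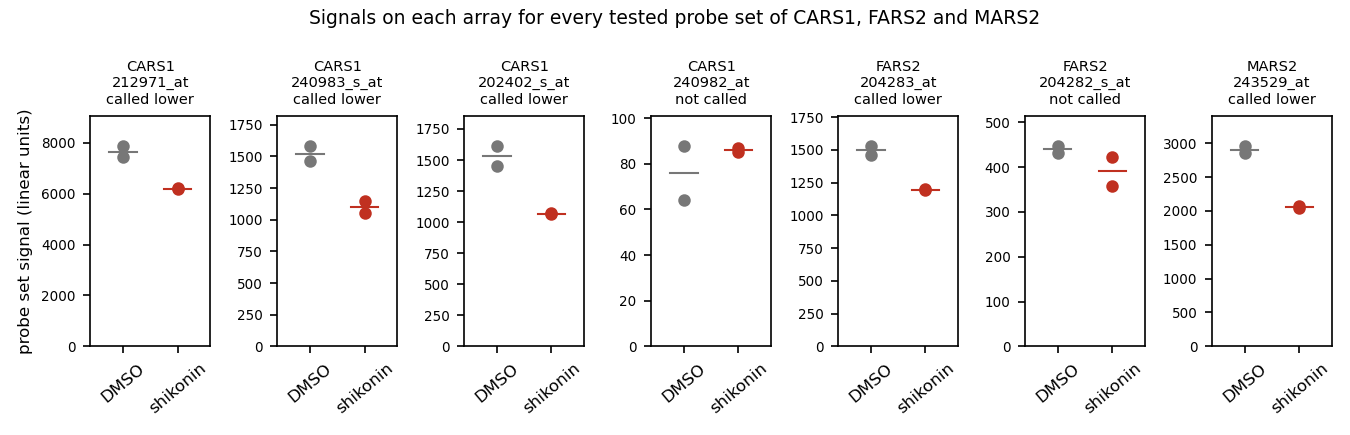
Probe set signal in linear units (vertical axes from 0, scaled separately) on each DMSO array (grey) and shikonin array (red), with bars at group means, for every tested probe set of CARS1, FARS2 and MARS2. The shikonin points lie below the DMSO points in 6 of the 7 panels; the exception is the dimmest CARS1 probe set, whose signals run from 64.0 to 87.8.

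Another 3 cytosolic enzymes had 95% intervals below 0 without passing the adjusted threshold. AARS1, the alanyl enzyme, read 4502 and 4687 in DMSO against 4048 and 3876 (log2 change -0.21, limma adjusted p = 0.0598). TARS1, the threonyl enzyme, read 7788 and 7765 against 6864 and 6774 (log2 change -0.19, limma adjusted p = 0.0543). For GARS1, the glycyl enzyme, the signals were 14524 and 15867 against 13525 and 13191 (log2 change -0.18, limma adjusted p = 0.0774). None of the 3 passed, and in each both shikonin arrays were below both DMSO arrays. NARS1, the asparaginyl enzyme (-0.07), SARS1 (-0.04) and FARSA (-0.04) also lay apart downward, with intervals that held 0. Altogether 7 of the 17 cytosolic genes lay apart downward and 5 upward. Over all genes tested, 27.3% lay apart downward and 28.2% upward. The second probe set of FARSA lay apart upward (0.13) and that of SARS1 apart downward (-0.49), neither passing. GARS1 passed without DMSO 1 (log2 change -0.25, limma adjusted p = 0.0442) and shrank to -0.12 without DMSO 2 (limma adjusted p = 0.314). Without shikonin 1 or shikonin 2 it did not pass (limma adjusted p = 0.178 and 0.272).

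On the other side stood 3 cytosolic enzymes whose interval lay above 0 without passing. RARS1, the arginyl enzyme of the multi-synthetase complex, read 5117 and 4263 in DMSO and 6396 and 5378 after shikonin. Its groups did not overlap, but the spread within each was wide, and the log2 change of 0.33 had a limma adjusted p of 0.0789. RARS1 passed without DMSO 1 (log2 change 0.46, limma adjusted p = 0.0209) or shikonin 2 (log2 change 0.45, limma adjusted p = 0.0259), and the change shrank to 0.20 without DMSO 2 or shikonin 1. HARS1, the histidyl enzyme, read 1869 and 1677 against 1988 and 2120 (log2 change 0.21, limma adjusted p = 0.143). KARS1, the lysyl enzyme, read 17342 and 17314 against 19055 and 18434 (log2 change 0.11, limma adjusted p = 0.181), and its second probe set changed by 0.18 (limma adjusted p = 0.0612).

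The remaining cytosolic genes had changes between -0.04 and 0.09, none of which passed: EPRS1, the joint glutamyl and prolyl enzyme (0.01), FARSA (-0.04) and FARSB (0.09), the subunits of the phenylalanyl enzyme, IARS1 (-0.03), LARS1 (0.09), SARS1 (-0.04), VARS1 (0.06), WARS1, the interferon-inducible tryptophanyl enzyme (0.00), and YARS1 (0.03). For all 17 cytosolic genes the 95% interval lay within 1.5-fold of DMSO in either direction, a limit chosen after the values were known, and so it did for 14 of the 15 mitochondrial genes, the exception being MARS2. Over all genes tested, 54.2% had such an interval. The members were mostly bright, with a median DMSO signal of 3345 against 591 over all genes tested, and 20 of the 32 were among the brightest 20% of genes. Of those bright genes 8.56% of genes were called lower and 11.2% higher.

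**Figure D2:**
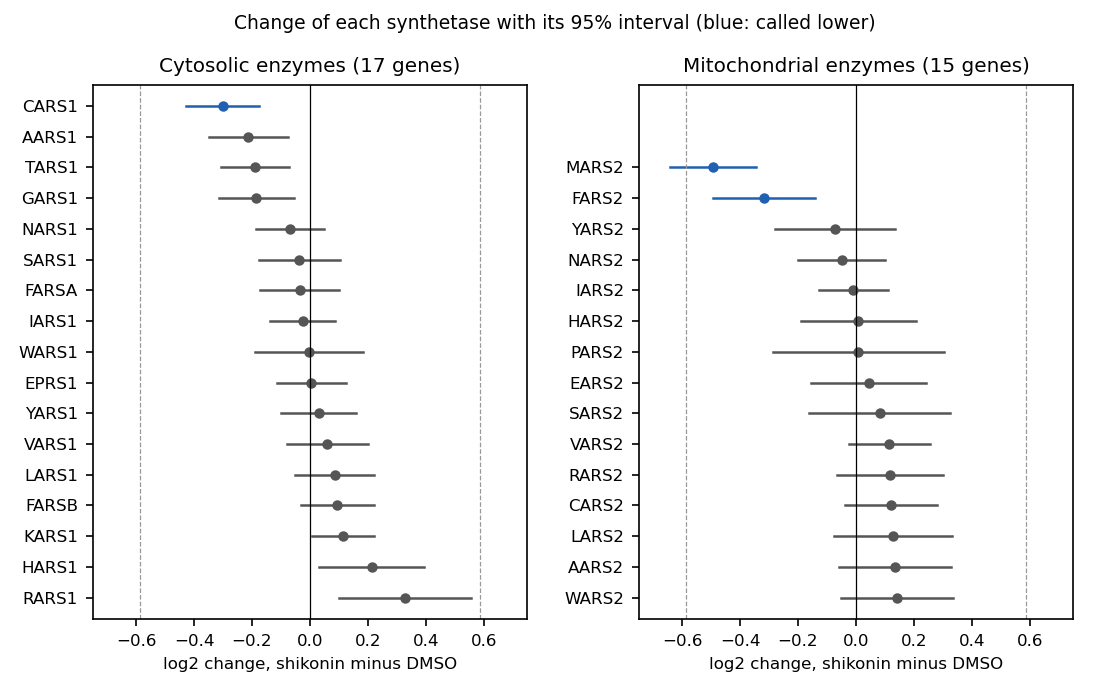
Log2 change (shikonin minus DMSO, horizontal axis) of each of the 17 cytosolic and 15 mitochondrial synthetase genes on its brightest probe set, with bars for the 95% interval of the limma fit and dashed lines at 1.5-fold. CARS1, MARS2 and FARS2, in blue, fell, and the interval of MARS2 is the only one that crosses a dashed line.

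Cytosolic and mitochondrial enzymes had class medians near 0, in which opposite changes of single genes cancel. The cytosolic genes had a median log2 change of 0.00, with 1 of 17 called lower (5.88%), and the mitochondrial genes a median of 0.04, with 2 of 15 called lower (13.3%). The median over all genes tested was 0.00, and 6.65% of them were called lower. The mean log2 level of the cytosolic genes was 12.59 on both DMSO arrays and 12.60 and 12.57 after shikonin. For the mitochondrial genes it was 10.53 and 10.58 in DMSO and 10.54 and 10.58 after shikonin, so the groups overlapped. Outside MARS2 and FARS2, the mitochondrial genes ran from -0.07 for YARS2 to 0.14 for WARS2, and 10 of the 15 had a change above 0. AARS2 (0.13), LARS2 (0.13), CARS2 (0.12), RARS2 (0.12), VARS2 (0.11), SARS2 (0.08) and EARS2 (0.04) lay higher on both shikonin arrays than on both DMSO arrays, as did WARS2. Such separation upward occurred in 28.2% of all genes tested and in 8 of 15 mitochondrial synthetases, and separation downward in 27.3% and in 3 of 15. HARS2 (0.01), PARS2 (0.01), IARS2 (-0.01) and NARS2 (-0.05) made up the rest. These counts rest on the brightest probe set of each gene. The second probe sets of WARS2 (-0.14) and AARS2 (-0.08) lay apart downward, and that of LARS2 (0.20) apart upward. The other probe sets of EARS2 lay at -0.03, -0.06 and -0.05 and those of CARS2 at -0.18 and -0.10. Those of RARS2 lay at -0.04, 0.10 and 0.54.

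Enzymes for the same amino acid in the 2 compartments could be set side by side in 13 pairs, phenylalanine entering once for each cytosolic subunit. In 3 pairs the 95% intervals did not overlap. For alanine, AARS1 changed by -0.21 and AARS2 by 0.13, a difference of -0.35. For cysteine, CARS1 changed by -0.30 and CARS2 by 0.12, a difference of -0.42. In the phenylalanine pair of FARSB (0.09) and FARS2 (-0.32) the mitochondrial gene was the lower, by 0.41. The differences themselves were not tested. The second probe set of AARS2 went the other way (-0.08), and those of CARS2 lay at -0.18 and -0.10. The dimmer probe sets of FARSB lay at 0.02 and -0.10 and that of FARS2 at -0.17, so all 3 contrasts rest on the brightest probe sets. HARS1 and HARS2 lie head to head on opposite strands, with 84 bases between their starts and 184 bases of promoter window in common. Their changes were 0.21 and 0.01, with overlapping intervals.

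Of the 18 members with several tested probe sets, 7 had all of them on 1 side of 0 and 11 had them on both sides. KARS1, YARS1 and LARS2 lay above 0 on every probe set, and SARS1, TARS1, WARS1 and FARS2 below 0. The second probe set of SARS1, the seryl enzyme, was dimmer and read 378 and 384 in DMSO against 268 and 269 after shikonin. These values lay apart (log2 change -0.49) and missed the threshold (limma adjusted p = 0.0593), whereas the brightest SARS1 probe set changed by -0.04. In RARS2 a probe set with signals of only 30.7 to 65.6 changed by 0.54 and the brightest by 0.12, and none of its 4 passed. In all, 5 of 61 member probe sets fell and 0 rose, against 5.28% and 3.92% of all probe sets tested.

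By structure, synthetases fall into class I and class II, which differ in the fold of the catalytic domain. The 16 class I genes had a median log2 change of 0.05 with 2 called lower (12.5%, CARS1 and MARS2). The 15 class II genes had a median of -0.04 with 1 called lower (6.67%, FARS2). Over all genes tested, 6.65% were called lower, and the difference between the classes was not tested. EPRS1 holds a domain of each. Within the cytosol, the 5 tested enzymes of the multi-synthetase complex (EPRS1, IARS1, KARS1, LARS1 and RARS1) had a median of 0.09. Outside the complex the 12 genes had a median of -0.04. AIMP1, a scaffold protein of the complex, changed by 0.08 and did not pass.

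The 5 lowest cytosolic changes belonged to genes shown above with the promoter match. All 6 tested cytosolic genes with a match lay below 0: CARS1, AARS1, TARS1, GARS1, NARS1 and IARS1, with a median log2 change of -0.19 and a range of -0.30 to -0.03. The 8 cytosolic genes whose window held no match ran from -0.04 for SARS1 to 0.33 for RARS1, with a median of 0.05. Only CARS1 of these 14 genes fell by the test. YARS2, the mitochondrial gene with a match, changed by -0.07. The motif was chosen after the values were known, and the difference between the sets was not tested. Over all genes tested with a window, the 329 with a match had a median of -0.05 and 9.12% called lower. The 10570 without a match had a median of 0.01 and 6.81% called lower. A change below 0 was seen in 56.5% of those with a match and 49.0% of those without. Without DMSO 2, IARS1 moved above 0, which left 5 of the 6 genes below it.

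**Figure D3:**
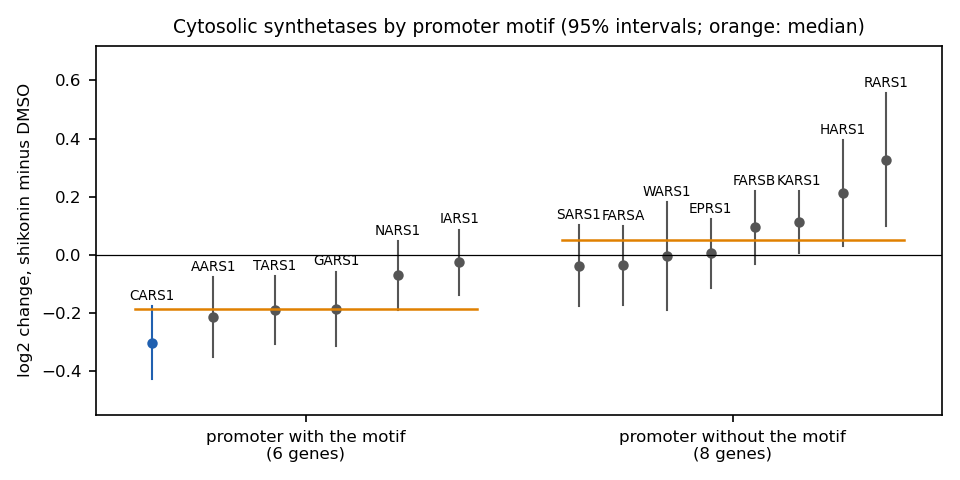
Log2 change (shikonin minus DMSO, vertical axis) with 95% intervals for the 14 tested cytosolic synthetases that had a promoter window, divided by a match to the ATF4 and C/EBP core. The 6 genes with a match lie between -0.30 and -0.03 and the 8 without between -0.04 and 0.33; orange bars mark the medians, and CARS1, in blue, fell.

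Division by textbook ATF4 targets is not independent of division by promoter match, since all 6 tested cytosolic genes with a match are in that group. Neither division was tested. The 11 tested cytosolic genes listed as ATF4 targets had a median of -0.04, with 8 of 11 below 0. The 6 other cytosolic genes (FARSA, FARSB, HARS1, KARS1, RARS1 and VARS1) had a median of 0.10, with 5 of 6 above 0. EPRS1, LARS1 and YARS1, which are in the ATF4 group, lay at 0.01 to 0.09 on their brightest probe sets. A dimmer probe set of EPRS1 (-0.15) and of LARS1 (-0.15) lay apart downward, neither passing (limma adjusted p = 0.173 and 0.398). The other probe sets lay at -0.0004 for EPRS1, at 0.004 and 0.01 for LARS1 and at 0.16 for YARS1. Other amino acid starvation targets of ATF4 changed more: of 28 tested, 11 fell (39.3%) and 3 rose (10.7%), with a median of -0.21. The shares over all genes tested were 6.65% lower and 5.05% higher. The pseudokinase TRIB3 fell by 1.32 on the log2 scale (limma adjusted p = 1.09e-05) and the transcription factor CEBPB by 0.87 (limma adjusted p = 9.53e-05). The cystine transporter SLC7A11, which is also an NRF2 target, rose by 1.33 (limma adjusted p = 2.91e-05). In the list of GCN2 signalling, 2 of 14 fell and 2 rose (14.3% each), against 6.65% and 5.05% of all genes tested. The eIF2 phosphatase subunits PPP1R15B (log2 change -0.46) and PPP1R15A (-0.38, with its other probe set at 0.09) fell. Risers were eIF2α itself, EIF2S1 (0.24), and the GCN2 activator GCN1 (0.31). The other probe sets of EIF2S1 (0.27 and 0.11) and GCN1 (0.26) did not pass. With any 1 array left out 0 genes of this list rose, and 2 fell without shikonin 2 but 1 without DMSO 1, DMSO 2 or shikonin 1. The mRNA of ATF4 changed by -0.11 and did not pass; it and PPP1R15A were named after their values were seen.

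Genes that make and modify tRNA, upstream of charging, included risers, and no gene passed downward at the stated settings. Of 16 tested genes of tRNA export, end maturation and splicing, 5 rose (31.2%), with a median of 0.14. Over all genes tested, 5.05% were called higher and 6.65% lower. POP1, a protein of RNase P, which trims the 5′ end of precursor tRNA, read 464 and 418 in DMSO against 739 and 768 after shikonin (log2 change 0.76, limma adjusted p = 0.00385). TRNT1, which adds the CCA end that synthetases charge, read 1917 and 1874 against 2709 and 2384 (log2 change 0.42, limma adjusted p = 0.0125); its other probe sets, at 0.31 and -0.05, did not pass. The RNase P and MRP proteins POP7 (0.27) and POP4 (0.28, and 0.96 on a dimmer probe set) also rose, as did ELAC1, a 3′ end nuclease (0.86), whose second probe set (0.33) did not pass. POP4 and ELAC1 lie outside the rule for named genes and were added after their values were seen. XPOT, the tRNA exportin, and RPP38, another RNase P protein, had intervals below 0 without passing (log2 changes -0.20 and -0.28, limma adjusted p = 0.056 and 0.103), and were named after their values were seen. In 4 alternatives (lowest 60% left out, quantile normalization, no _x_at or _s_at probe sets, replicate block) 1 gene of the list was called lower. The count of risers was 3 without DMSO 1 or DMSO 2, 1 without shikonin 1 and 2 without shikonin 2.

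Of 33 tested tRNA modification genes, 5 rose (15.2%) and 28 had a change above 0, with a median of 0.15. Over all 13554 genes tested, 5.05% were called higher, 6838 had a change above 0, and the median was 0.00. METTL1 and WDR4 are the catalytic and partner subunits of the enzyme that makes 7-methylguanosine in tRNA, and both rose. WDR4 read 1994 and 2065 in DMSO against 3050 and 3037 (log2 change 0.58, limma adjusted p = 0.000985), and its other probe sets rose as well. METTL1 read 329 and 374 against 481 and 627 (log2 change 0.63, limma adjusted p = 0.0346). PUS3, a pseudouridine synthase, rose by 0.59, and TRMT112, an activator of methyltransferases, and TYW1, a wybutosine enzyme, by 0.22 and 0.27. TRMT112 and TYW1 were named after their values were seen. Every tested probe set of WDR4, METTL1, PUS3 and TRMT112 has a name ending in _x_at or _s_at. A run without such probe sets therefore could not test these genes, and of the 5 risers it read only TYW1, which did not pass. The count of risers was 2 without DMSO 1 or shikonin 2, 3 without shikonin 1 and 4 without DMSO 2, and 0 without probe sets that may match several transcripts (names ending in _x_at or _s_at).

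Genes that act on or after charged tRNA gave no calls by limma at the stated settings. No gene passed among 5 tested cytosolic elongation factors and enzymes that modify them (median 0.06). The same held for 8 mitochondrial factors of initiation, elongation, release and recycling (0.11) and 6 genes of selenocysteine tRNA charging (-0.05). It held too for 4 genes of mitochondrial tRNA amidation and formylation (-0.05) and 3 of editing and hydrolysis (0.15). Of these 26 genes, 9 (34.6%) had an unadjusted p under 0.05, against 28% of all genes tested. EEF1AKMT1, which methylates an elongation factor, changed by 0.38 and GFM1, a mitochondrial elongation factor, by 0.23 with neither past the threshold, although each list held 1 riser without DMSO 1. A filter that dropped the dimmest 60% gave 1 selenocysteine gene called lower. The elongation factor kinase EEF2K (-0.19) and the mitochondrial release factor MTRF1 (-0.36) lay below 0. In the selenocysteine list the genes with the smallest p were SECISBP2, which binds the selenocysteine insertion element (-0.29), and PSTK, the kinase that acts on seryl-tRNA (0.21). Those of the amidation and formylation list were GATB (0.18) and MTFMT (-0.11), and those of the editing list PTRHD1 (0.19) and DTD2 (0.15), none past the threshold. TARS3, a synthetase outside the list, changed by 0.07.

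**Figure D4:**
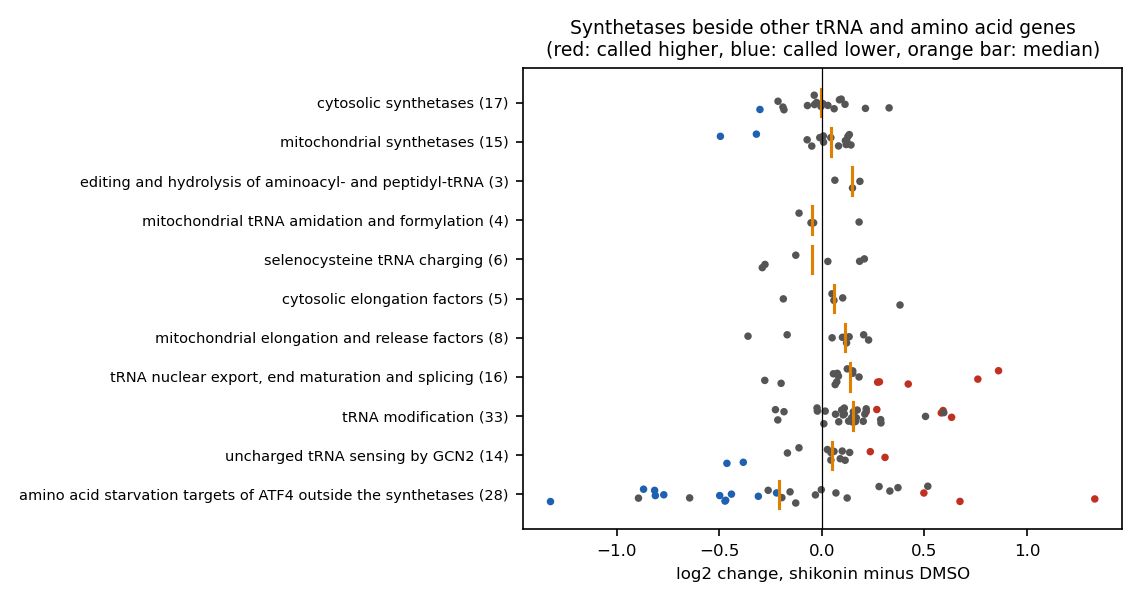
Log2 change (shikonin minus DMSO, horizontal axis) of single genes in the 2 synthetase classes and in 9 related lists with at least 3 tested genes; the number tested is in brackets, vertical scatter within a list has no meaning, and orange bars are medians. The synthetases stay between -0.49 and 0.33, with 3 genes in blue called lower, while starvation targets of ATF4 reach from -1.32 to 1.33 and genes of tRNA maturation and modification include 10 called higher, in red. Over all genes tested, 5.05% were called higher and 6.65% lower.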

How the data were processed

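Biotin-labelled cRNA of U937 cells was hybridized to Affymetrix U133 Plus arrays, per the labels' protocols. The authors deposited 1 linear intensity per probe set and array; which software summarised the probes was not given in the labels or headers. The mean after trimming 2% at each end was 500.1 on all 4 arrays, so changes are relative to the rest of the array. Of 54675 probe sets, 41097 had 1 symbol in the supplied platform annotation, 1801 several and 11777 none listed. Values were converted to log2(signal + 9.94), the pseudocount being the 20th percentile, which understates changes of dim genes. The 62 controls and the dimmest 40% by mean log2 value were left out. The whole table was fitted with limma 3.58.1 in R 4.3.3 (lmFit, eBayes with a variance trend; 2 residual and 7.1 prior degrees of freedom), with Benjamini-Hochberg adjustment over 32768 probe sets, and tested on simulated data. A gene is its brightest probe set. Number of arrays limits precision. All members could be named, and up to 3 called genes of each of 11 related lists by p, or 2 where none was called; 119 of 134 listed genes were tested. Members and lists were chosen with earlier results of these data known. Alternatives covered pseudocount, filter, normalization, variance prior, probe set choice, replicate block and each array left out. The labels do not say that equal replicate numbers share a culture.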

Additional observations from a re-analysis of the deposited data

How the results depend on the processing

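With the stated settings 0 members rose and 3 fell (1 cytosolic, 2 mitochondrial), with medians of -0.004 and 0.0439; no called change turned direction under any alternative run, and both other pseudocounts changed no member's call. With no filter 1 mitochondrial gene fell, and 3 maturation genes, 2 modification genes and 0 GCN2 genes rose, with 1 GCN2 gene lower. That run called 350 of all 19775 genes higher and 607 lower, against 685 and 901 of 13554 at the stated settings. With the lowest 60% left out, 5 members fell, 3 of them cytosolic, while 878 of all 10060 genes were called higher and 1093 lower. Quantile normalization gave 5 that fell (4 cytosolic, 1 mitochondrial), medians of -0.0489 and 0.0897, and 1 GCN2 gene higher. Over all genes it called 686 higher and 843 lower. A single variance prior gave 0 calls in every class and list, as no gene of the array passed. The mean of a gene's probe sets left 1 member lower (0 cytosolic, 1 mitochondrial) and a mitochondrial median of 0.0034. It left 3 maturation genes and 1 GCN2 gene higher, and 1 GCN2 gene lower. Over all genes it called 522 higher and 718 lower. Without _x_at and _s_at probe sets, 27 members were tested: 2 cytosolic genes fell, and the mitochondrial median was 0.0087. In that run 0 modification genes, 1 GCN2 gene and 1 ATF4 target rose, and 7 ATF4 targets fell. It called 470 of all 10832 genes higher and 657 lower. Genes with no other probe set dropped out. Among them were the risers WDR4, METTL1, PUS3, TRMT112, SLC7A5 and SLC3A2, and SLC38A2, VLDLR, DDIT4 and PSAT1, which had fallen.

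The replicate block, fitted although same-numbered arrays correlated at only 0.022 in their deviations, raised the calls over all genes from 685 higher and 901 lower to 1234 and 1324. With 2 arrays per group both pairs give the same correlation, so it is 1 value. Under the block 2 members rose (both cytosolic, KARS1 and RARS1), 6 fell (4 cytosolic, with AARS1, GARS1 and TARS1 added) and 9 modification genes rose, with 2 cytosolic and 1 mitochondrial elongation list genes higher and 1 selenocysteine and 1 maturation gene lower.

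With each array left out in turn, 0 to 1 members rose (0 to 1 cytosolic) and 1 to 3 fell (0 to 2 cytosolic, 1 mitochondrial each time), with cytosolic medians of -0.0361 to 0.0243. The risers numbered 1 to 3 for maturation, 2 to 4 for modification and 0 for GCN2, and 1 to 2 GCN2 genes fell. A lone array in a group was assumed to vary like the other group. For weak probe sets, signal near background limits precision: 6 member probe sets were too dim to test.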
